A study of Mus musculus with 2 samples.

Results

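The genes of adenosine-to-inosine (A-to-I) RNA editing and of N6-methyladenosine (m6A), the most common internal mark of messenger RNA, were measured in mouse hippocampus. The 10 genes were chosen by name out of 55536 annotated genes. They were the editors Adar, Adarb1 and Adarb2, the m6A writers Mettl3, Mettl14 and Wtap, the m6A erasers Fto and Alkbh5, and the m6A readers Ythdf1 and Ythdf2. The tissue came from female mice of the strain B6CASTF1/J, aged 36 days, and is labelled as a layer of the hippocampus. This strain is a first-generation cross of the C57BL/6J and CAST/EiJ strains. Total RNA, 300 ng per library, was sequenced with external ERCC spike-in RNAs as 2 libraries numbered as biological replicates 1 and 2. There was 1 group, with no treatment or mutant, so levels are described and no condition is tested. The libraries have separate biosamples and 1 shared donor identifier, so the labels do not say whether they came from separate mice, and the spread given here is that between these 2 samples. RNA levels were measured, not editing or methylation of RNA. In bulk tissue, fewer cells of a type and less RNA per cell cannot be told apart.

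A-to-I editing is carried out on double-stranded RNA by ADAR enzymes, and inosine is then read as guanosine. ADAR1 (Adar) edits mostly repeat-derived duplexes, and its loss lets cytoplasmic sensors treat the cell's own RNA as viral. ADAR2 (Adarb1) recodes neuronal transcripts, best known at the glutamine/arginine site of the AMPA receptor subunit Gria2, whereas no deaminase activity is known for ADAR3 (Adarb2). The m6A mark is laid down by a METTL3-METTL14 heterodimer held at nuclear speckles by WTAP, removed by FTO and ALKBH5, and bound by YTH-domain proteins that act on the translation and decay of the marked RNA.

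The sequences that tell the main forms of the editors and of Wtap apart come first, since the values below turn on them. They were read from GENCODE M21 transcripts on mm10, 5′ to 3′ on the transcript's strand. Adarb1 lies on the minus strand. In 3 annotated transcripts an upstream splice acceptor adds 47 bases at chr10:77322584-77322630, shown from 1 of them (ENSMUST00000105404.8) in capitals with 20 bases of flanking exon on each side, followed by the same junction in a coding transcript without it (ENSMUST00000020496.13).
Adarb1 with the 47 bases: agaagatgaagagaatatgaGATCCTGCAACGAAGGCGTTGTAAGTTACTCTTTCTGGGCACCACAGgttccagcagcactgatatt
Adarb1 without them: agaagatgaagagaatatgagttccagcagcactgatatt
The added stretch ends in AG, the usual last bases before an acceptor, where the other form is joined. Since 47 is not a multiple of 3, the reading frame changes after 9 codons, and in the transcript shown a stop follows 82 codons from the start, against 701 codons in the coding transcript. In rodents ADAR2 is known to edit its own precursor RNA and so to create this upstream acceptor. The editing site lies in the intron and is not shown here.

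A later exon of Adarb1, in the region coding for the deaminase domain, can end at either of 2 splice donors. A transcript that codes for 711 residues (ENSMUST00000098374.8) runs on for 30 bases at chr10:77312348-77312377 (capitals), which add 10 residues to the 701 of the other coding transcript, whose junction follows it. The added stretch begins with GT, as a splice donor does.
Adarb1 with the 30 bases: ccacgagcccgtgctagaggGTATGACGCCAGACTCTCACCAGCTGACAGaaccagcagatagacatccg
Adarb1 without them: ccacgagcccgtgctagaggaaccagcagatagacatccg
Adar lies on the plus strand, and 1 of its exons also has 2 ends. The longer end in Adar-202 keeps 78 bases at chr3:89745524-89745601 (capitals), or 26 residues in frame, which Adar-201 lacks.
Adar-202: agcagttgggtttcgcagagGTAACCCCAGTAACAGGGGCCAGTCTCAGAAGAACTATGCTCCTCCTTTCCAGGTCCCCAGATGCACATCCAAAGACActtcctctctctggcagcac
Adar-201: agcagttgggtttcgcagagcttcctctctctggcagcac
Wtap lies on the minus strand. Its short coding form, Wtap-205, shares 452 coding bases with the long form Wtap-203. It then runs into its own last 4 bases at chr17:12975292-12975295, which hold the last base of codon 151 and the stop codon TAA. Capitals mark the bases after the point where the forms part. The short form codes for 151 residues and the long form for 396.
Wtap-205: tggaagtttacgcctgatagGTAA
Wtap-203: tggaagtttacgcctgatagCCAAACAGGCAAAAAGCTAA

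Adar has 2 groups of annotated starts. The upstream start gives the constitutive nuclear protein of 930 residues (Adar-202), and the downstream start gives the longer, mainly cytoplasmic protein of 1178 or 1152 residues (Adar-203 and Adar-201), which is known to be induced by interferon. Also annotated from the downstream start are Adar-204 and Adar-205, with shorter coding regions of 660 and 634 residues. RefSeq windows from 250 bases before to 50 bases after each start (GRCm38.p6, plus strand) are shown for the downstream start at chr3:89730468-89730767 and for 1 upstream start at chr3:89714772-89715071. Capitals mark GAAANNGAA, a shortened interferon-response motif searched on both strands.
Adar downstream: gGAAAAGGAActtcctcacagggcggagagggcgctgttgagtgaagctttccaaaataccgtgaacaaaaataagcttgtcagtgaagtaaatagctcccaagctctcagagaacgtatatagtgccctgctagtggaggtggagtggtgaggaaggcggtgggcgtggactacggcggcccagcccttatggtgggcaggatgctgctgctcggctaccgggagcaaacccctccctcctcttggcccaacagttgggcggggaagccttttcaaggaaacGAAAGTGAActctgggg
Adar upstream: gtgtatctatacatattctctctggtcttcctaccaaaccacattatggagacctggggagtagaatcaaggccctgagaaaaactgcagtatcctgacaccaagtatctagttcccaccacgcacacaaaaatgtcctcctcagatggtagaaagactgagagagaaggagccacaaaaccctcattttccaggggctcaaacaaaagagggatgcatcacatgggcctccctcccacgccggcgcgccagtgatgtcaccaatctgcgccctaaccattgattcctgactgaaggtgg
The full motif GAAANNGAAA was in 0 of the 13 windows matched to 9 of the 10 genes (Mettl14 had none), against 3.44% of 32851 mouse promoters. The shortened motif, tried after that, was in 1 of the 13 windows, the downstream start of Adar, against 8.56% of all promoters. It matched there 2 times, from positions 89730469 and 89730751. A match describes the letters only.

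Summed expected counts were 32443497 in replicate 1 and 30125183 in replicate 2, and the 8 hippocampal neuron markers were all detected, led by Camk2a at 1303 and 1180 TPM, Snap25 at 851 and 725 TPM and Slc17a7 at 568 and 529 TPM. TPM is a level per RNA length, scaled to the whole library. Over 18246 genes the biological coefficient of variation was 0.0898. Ratios between the libraries are log2, replicate 2 over replicate 1, on counts scaled by TMM, and their median was -0.01 over 12651 genes whose mean count reached 100. Choroid plexus markers were higher in replicate 2. The 7 of them summed to 5.92 TPM in replicate 1 and 56.5 TPM in replicate 2, with none at 0. All 5 of them with enough counts were over 2-fold higher in replicate 2, against 0.466% of the 12651 genes in either direction, from Kl at 1.94 to Clic6 at 5.17 on the log2 scale, with Sostdc1 at 3.69, Aqp1 at 4.28 and Slc4a5 at 4.86. Of 5 meningeal fibroblast markers 4 were higher as well, at sums of 52.9 and 104 TPM, led by Igf2 (24.7 and 62.5 TPM, log2 ratio 1.36). All 5 oligodendrocyte markers were lower in replicate 2 by over 0.32 on the log2 scale (a 20% step down), with sums of 1408 and 1068 TPM, as were 2 of the 8 hippocampal neuron markers, against 6.21% of the 12651 genes in either direction. With counts scaled to the spike-ins in place of TMM, 0 of these 5 and 0 of these 8 were lower by that much, and the oligodendrocyte median was -0.09 in place of -0.35.

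All 10 genes reached at least 1 TPM in each library and were thus called detected, against 26.3% of all genes and 57.6% of protein-coding genes. Fto was highest in the first quantification at a mean of 55.8 TPM, above 86.8% of detected protein-coding genes, and Mettl14 was lowest at 5.90 TPM, above 24.2% of them. Adar and Adarb1 came next after Fto, at 46.7 and 45.9 TPM, and their libraries overlapped. In the second quantification Adar was first at a mean of 116.0 TPM and Fto next at 115.5 TPM, and their libraries overlapped. Below them Wtap (21.8 TPM), Alkbh5 (21.8 TPM) and Ythdf1 (21.6 TPM) overlapped as neighbours, then Mettl3 (18.5 TPM) and Ythdf2 (18.1 TPM), while Adarb2 stood at 16.6 TPM. The libraries of neighbouring genes did not overlap at 5 places, below Fto, Adarb1, Ythdf1, Ythdf2 and Adarb2. Over all transcripts, 1 gene stood well above another among the editors, writers and erasers, while the readers were close. These were Adarb1 over Adarb2, Wtap and Mettl3 over Mettl14, and Fto over Alkbh5. In coding transcripts of the first quantification the readers were further apart. Ythdf1 had 20.9 and 22.2 TPM there in replicates 1 and 2, and Ythdf2 had 11.1 and 9.60 TPM. Mettl3 (8.90 and 7.48 TPM) was there nearer to Mettl14 (5.41 and 6.22 TPM).

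**Figure D1:**
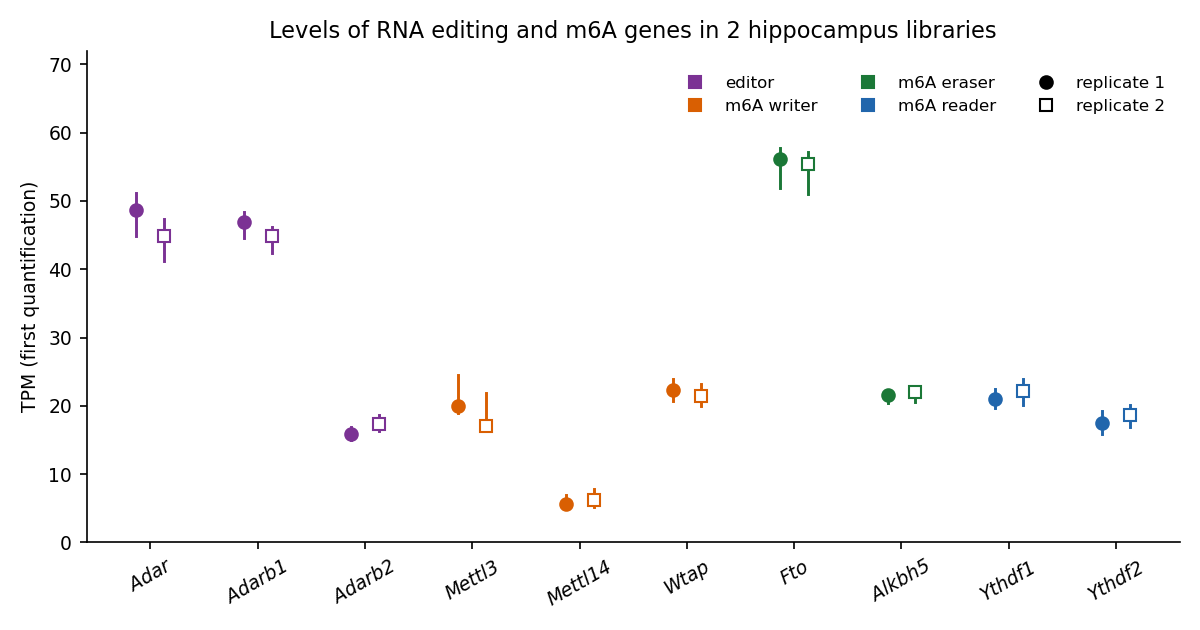
TPM of each gene (first quantification) in replicate 1 (filled circles) and replicate 2 (open squares), coloured by role, with the bounds the authors deposited for each library (their level is not stated) as vertical lines. Fto, Adar and Adarb1 lie between 44.8 and 56.2 TPM, Mettl14 lies between 5.57 and 6.22 TPM, and the other genes lie between 15.9 and 22.3 TPM.

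Of the 3 editors, Adar (ENSMUSG00000027951.16, mm10 chromosome 3, 89715022 to 89753446, plus strand) had 4837 expected counts and 48.7 TPM in replicate 1, and 4439 counts and 44.8 TPM in replicate 2. Its log2 ratio was -0.05, with a 95% counting interval from -0.11 to 0.01, a difference within counting error. Counting intervals are exact binomial, take the TMM scaling as fixed and cover counting error only. Adarb1 (ENSMUSG00000020262.15, chromosome 10, 77290726 to 77418270, minus strand) had 6018 and 5438 counts in replicates 1 and 2, or 46.9 and 44.9 TPM. Its log2 ratio was -0.07 (counting interval -0.12 to -0.02), and on this scaling the interval lay below 0. With total counts as the scaling the ratio was -0.04. Under TMM, 42.1% of the genes compared lay nearer 0 than Adarb1. Adarb2 (ENSMUSG00000052551.16, chromosome 13, 8202866 to 8768747, plus strand) had 1775 and 1801 counts, or 15.9 and 17.3 TPM. Its ratio of 0.10 (counting interval 0.003 to 0.19) was the highest of the 10 genes, and on this scaling its interval lay just above 0.

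Adarb1 was 2.94 times as high in TPM as Adarb2 in replicate 1 and 2.59 times in replicate 2. Adar was 1.04 and 0.999 times as high as Adarb1, so the order of the 2 active editors turned between the libraries. In the second quantification the authors deposited, the Adar to Adarb1 ratio was 1.70 in replicate 1 and 1.5 in replicate 2. Adar there held 123 and 109 TPM, and Adar-206, a non-coding transcript of 519 bases, supplied 46.3 and 36.0 TPM of it, against 6.63 and 4.42 TPM in the first. Its effective length was 187 bases in replicate 1 in the second quantification and 420 bases in the first, and the part of this in the difference was not tested.

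Adarb2 is known in mouse as a marker of interneurons from the caudal ganglionic eminence (CGE), and 9 of 10 markers of those cells were detected. They were led by Cxcl14 (50.8 and 48.6 TPM in replicates 1 and 2), Calb2 (20.4 and 23.5 TPM) and Lamp5 (20.7 and 18.1 TPM), with a median log2 ratio of 0.12. Of the 8 compared, 1 was over 0.32 apart on the log2 scale, against 6.21% of all genes compared. It was Nr2f2 at 0.36, named after its value was seen. With spike-in scaling 5 of the 8 were over 0.32 apart, against 28.2% of all genes compared. Of the 7 markers of interneurons from the medial ganglionic eminence, 6 were detected, led by Sst (180 and 167 TPM), Satb1 (29.3 and 27.9 TPM) and Pvalb (25.1 and 23.9 TPM). Their median log2 ratio was -0.09. The CGE markers compared did not move together, running from -0.17 (Lamp5) to 0.36 (Nr2f2). Adarb2 itself was at 0.10, and the part of either group of cells in that ratio was not tested.

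Among the writers, Mettl3, the catalytic methyltransferase (ENSMUSG00000022160.18, chromosome 14, 52294841 to 52305128, minus strand), had 621 counts and 19.9 TPM in replicate 1, and 521 counts and 17.1 TPM in replicate 2. Its log2 ratio of -0.18 (counting interval -0.35 to -0.01) was the lowest of the 10 genes. Mettl14, the partner that helps to bind RNA (ENSMUSG00000028114.16, chromosome 3, 123368297 to 123386108, minus strand), had 390 and 361 counts, or 5.57 and 6.22 TPM. With the fewest counts it also had the widest interval, -0.24 to 0.18 around a ratio of -0.03. Wtap, the regulatory subunit (ENSMUSG00000060475.13, chromosome 17, 12966796 to 12994169, minus strand), had 1102 and 1004 counts, or 22.3 and 21.4 TPM, and a ratio of -0.06 (counting interval -0.18 to 0.07).

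METTL3 and METTL14 proteins work as a heterodimer, but their RNAs were not level. The Mettl3 level in TPM was 3.58 times that of Mettl14 in replicate 1 and 2.75 times in replicate 2. The second quantification gave 3.49 and 3.30. The gap was smaller between the leading coding transcripts, with that of Mettl3 (580 residues, ENSMUST00000022767.15) at 8.90 and 7.48 TPM and that of Mettl14 (456 residues, ENSMUST00000029759.15) at 4.81 and 4.56 TPM. Wtap was 4.0 and 3.45 times as high as Mettl14 over all transcripts.

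Fto, the first m6A demethylase found (ENSMUSG00000055932.15, chromosome 8, 91313525 to 91668439, plus strand), had 4228 and 4114 counts in replicates 1 and 2, or 56.2 and 55.4 TPM. Its ratio was 0.04 (counting interval -0.02 to 0.10). Alkbh5, the nuclear demethylase (ENSMUSG00000042650.3, chromosome 11, 60536381 to 60558512, plus strand), had 2862 and 2697 counts, or 21.6 and 22.1 TPM, with a ratio of -0.01 (counting interval -0.08 to 0.07). Fto was 2.60 and 2.51 times as high as Alkbh5, and 2.40 times in each library of the second quantification, so this ratio moved little with library or quantification.

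Ythdf1, a reader known to promote translation (ENSMUSG00000038848.14, chromosome 2, 180904377 to 180920949, minus strand), had 1520 and 1406 counts in replicates 1 and 2, or 20.9 and 22.2 TPM. Its ratio was -0.03 (counting interval -0.14 to 0.07). Ythdf2, a reader known to bring marked RNA to decay (ENSMUSG00000040025.17, chromosome 4, 132184912 to 132212303, minus strand), had 1329 and 1256 counts, or 17.5 and 18.6 TPM, with a ratio of -0.00 (counting interval -0.12 to 0.11). Ythdf1 was 1.20 and 1.19 times as high as Ythdf2 in the first quantification but 0.971 and 1.05 times in the second, so the readers were closer there and Ythdf2 was the higher in replicate 1.

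Of the 10 genes, 0 were more than 0.32 apart between the libraries on the log2 scale (a step of 25% up or 20% down), against 6.21% of the 12651 genes compared. At a smaller fold of 1.1, 1 of the 10 passed, Mettl3, against 29.2% of those genes. Of the 10, 8 were below 0, against 54.3% of all genes, and their median was -0.03. Counts scaled to the spike-ins moved the median of all genes to 0.25 and that of the 10 genes to 0.22. That scaling shifts every gene alike. On it all 10 were above 0 and Adarb2, at 0.36, passed 0.32, as did 28.2% of all genes compared.

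**Figure D2:**
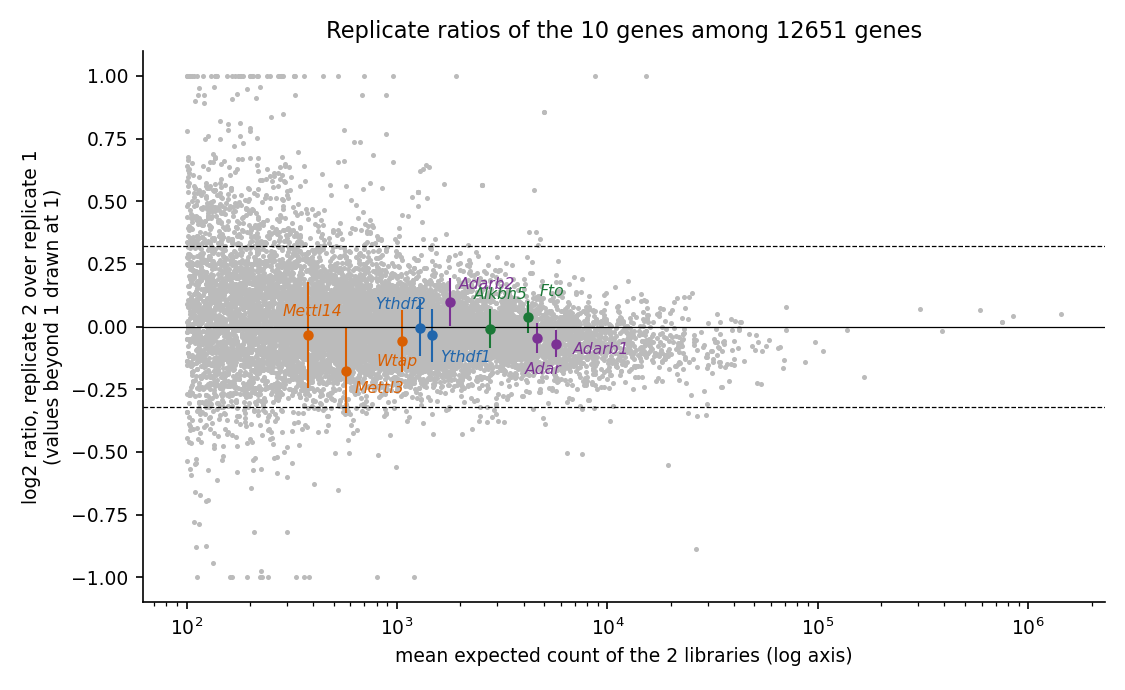
Log2 ratio, replicate 2 over replicate 1, against mean expected count (log axis) for 12651 genes (grey) and the 10 genes (coloured by role, with 95% counting intervals), dashed lines marking 0.32 up and down. The 10 genes lie between -0.18 (Mettl3) and 0.10 (Adarb2).

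Transcripts marked protein coding carried under 60% of the TPM in 4 of the 10 genes, namely Adarb1, Adarb2, Mettl3 and Ythdf2, against 17.0% of 11476 detected protein-coding genes with at least 2 transcripts. Ythdf2 was under 60% in the mean and in replicate 2 (51.6%) but not in replicate 1 (63.4%). By counts only Adarb1 and Adarb2 were under 60%, in both quantifications, against 9.0% of all genes in the first and 10.3% of 11474 genes in the second. By TPM in the second quantification 5 were, with Adar added, against 21.1%. The medians were close, at 85.6% for the 10 genes and 86.3% for the 11476. Counting coding transcripts alone, Fto stood first at 56.2 and 54.9 TPM in replicates 1 and 2 and Adar next at 34.8 and 33.3 TPM. Adarb1 moved down to 18.6 and 16.4 TPM, below Wtap, Ythdf1 and Alkbh5. At the low end, Adarb2 (5.71 and 6.22 TPM) and Mettl14 (5.41 and 6.22 TPM) overlapped.

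**Figure D3:**
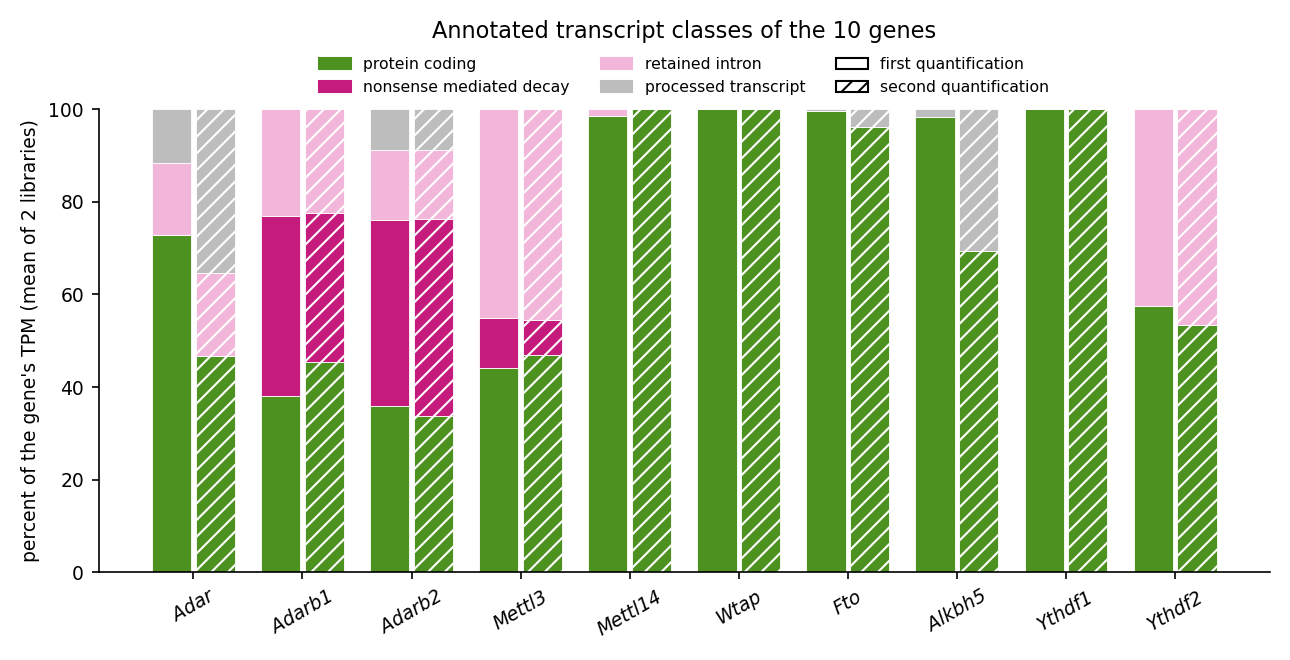
Percent of each gene's TPM (mean of 2 libraries) in 4 annotated transcript classes, with plain bars for the first quantification and hatched bars for the second. Coding transcripts make up all or nearly all of Wtap and Ythdf1 in both, and under 60% of Adarb1, Adarb2, Mettl3 and Ythdf2 in the first. Adar is under 60% in the second.

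Adarb1 was divided almost evenly at its alternative acceptor. Transcripts with the 47-base stretch held 18.8 TPM in each library, and those without it held 19.1 TPM in replicate 1 and 17.2 TPM in replicate 2. The stretch was thus in 49.5% and 52.2% of the TPM that could be told apart, or 50.9% ± 1.94 (SD, n = 2). The second quantification gave 41.2% and 45.0%, lower in each library but still a large share. The 30-base stretch in the deaminase region was in 51.2% and 62.1% in the first quantification and in 59.5% and 65.2% in the second, higher in replicate 2 in each.

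How the 2 Adarb1 choices were combined depended on the quantification. Of the TPM of the 6 transcripts in which both choices can be read, forms with only the 47-base stretch held 47.2% and 35.7% in replicates 1 and 2 in the first, and 22.6% and 31.5% in the second. Forms with only the 30-base stretch held 51.2% and 48.0% in the first, and 43.6% and 55.0% in the second. By TPM they were the largest class in each library of each quantification. By the deposited posterior mean TPM in replicate 2 of the first, the form with both stretches held 10.5 TPM. The 2 forms with only the 30-base stretch held 9.67 and 0.32 TPM there, so the order of the classes was not firm. The leading transcript was ENSMUST00000098374.8 in the first (18.2 and 16.4 TPM) and ENSMUST00000105406.7 in the second (25.0 and 26.8 TPM), and both code for 711 residues. In the first, ENSMUST00000105406.7 held 0.40 and 0.00 TPM, and ENSMUST00000098374.8 held 0.02 and 3.57 TPM in the second. The deposited bounds for ENSMUST00000098374.8 ran from 0.00 to 14.3 TPM in replicate 1, below its own TPM, so single Adarb1 transcripts were not well resolved.

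Adar-202, the constitutive form from the upstream start, had 32.5 and 31.8 TPM in replicates 1 and 2, or 66.8% and 70.9% of the gene's TPM and 91.9% and 93.2% of its counts. In the second quantification it held 33.5% and 40.3% of TPM, and Adar-206 held more in replicate 1 (37.6%) and less in replicate 2 (33.1%). By counts Adar-202 held 77.4% and 83.8% there. The 4 transcripts from the downstream, interferon-inducible start summed to 2.26 and 1.52 TPM, or 5.19% and 3.81% of the TPM with a known start. The second quantification gave 13.3% and 9.89%. In each quantification the non-coding Adar-206 and Adar-209 were counted on the upstream side, which lowers the downstream share. In the second, the downstream transcripts, all marked coding, held 13.9 and 9.17 TPM, beside 41.3 and 43.8 TPM for Adar-202. Of the downstream TPM, Adar-204, with its shorter coding region, held 3.77 and 1.13 TPM. The 78-base end was lacking in 6.50% and 4.57% of the forms that could be told apart in the first quantification, and in 12.6% and 14.2% in the second. The forms lacking it, Adar-201 and Adar-205, are both from the downstream start. In the first quantification they held all of its 2.26 and 1.52 TPM, so the 2 shares were not separate measures there. In both quantifications the long-exon, upstream-start form was the main coding one.

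Adarb2 had 2 full-length forms with the same 745 residues. The form that the annotation marks for nonsense-mediated decay (ENSMUST00000135574.7) had 6.57 and 6.83 TPM in replicates 1 and 2, and the form marked coding (ENSMUST00000064473.12) had 5.23 and 5.51 TPM. The marked form was thus 55.7% and 55.3% of the pair, and 58.6% and 60.5% in the second quantification. By counts it was below 50% in each library of each quantification, at 44.5% and 44.1% in the first, the form marked coding being longer.

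Mettl3 had the most transcripts of the 10, 15 in all. Retained-intron transcripts held 46.1% and 44.3% of its TPM in replicates 1 and 2, but only 21.6% and 21.7% of its counts, being short. The full coding form led in each library of each quantification. In Mettl14 the full coding form led likewise, with 86.4% and 73.3% of TPM.

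Wtap was divided evenly between its coding forms. The short form, which ends after 151 residues, had 10.2 and 9.41 TPM in replicates 1 and 2, and the long form had 10.1 and 10.2 TPM. The short form's share was 50.3% and 48.0%, or 49.2% ± 1.63 (SD, n = 2), and the second quantification gave 49.4% and 48.1%. Of the forms examined it varied least with the quantification in TPM.

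Fto was mainly Fto-201 (502 residues), at 47.0 and 47.6 TPM in replicates 1 and 2. The quantifications disagreed on its short fragments. Fto-206, of 762 bases with an open coding end, had 0.24 and 0.12 TPM in the first but 37.6 and 29.5 TPM in the second. The coding form of Alkbh5 (395 residues, ENSMUST00000044250.3) held 100% and 96.5% of TPM in replicates 1 and 2 in the first, and 65.5% and 73.4% in the second, where a non-coding transcript of 624 bases took the rest. The leading form of Ythdf1 (559 residues, ENSMUST00000037299.14) held 100% and 89.9% in the first, and 98.1% and 94.4% in the second.

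In the first quantification the share of the intron-retaining form of Ythdf2 differed most between the libraries among the 7 pairs of forms compared. The form that keeps an intron (ENSMUST00000102570.4) had 6.40 TPM in replicate 1 and 9.01 TPM in replicate 2, against 9.93 and 8.15 TPM for the coding form (579 residues, ENSMUST00000152796.7). Its share of the pair was 39.2% and 52.5% in the first quantification and 50.8% and 55.0% in the second. The deposited bounds of the intron-retaining form overlapped between the libraries, from 4.72 to 7.76 TPM in replicate 1 and from 7.15 to 10.3 TPM in replicate 2.

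**Figure D4:**
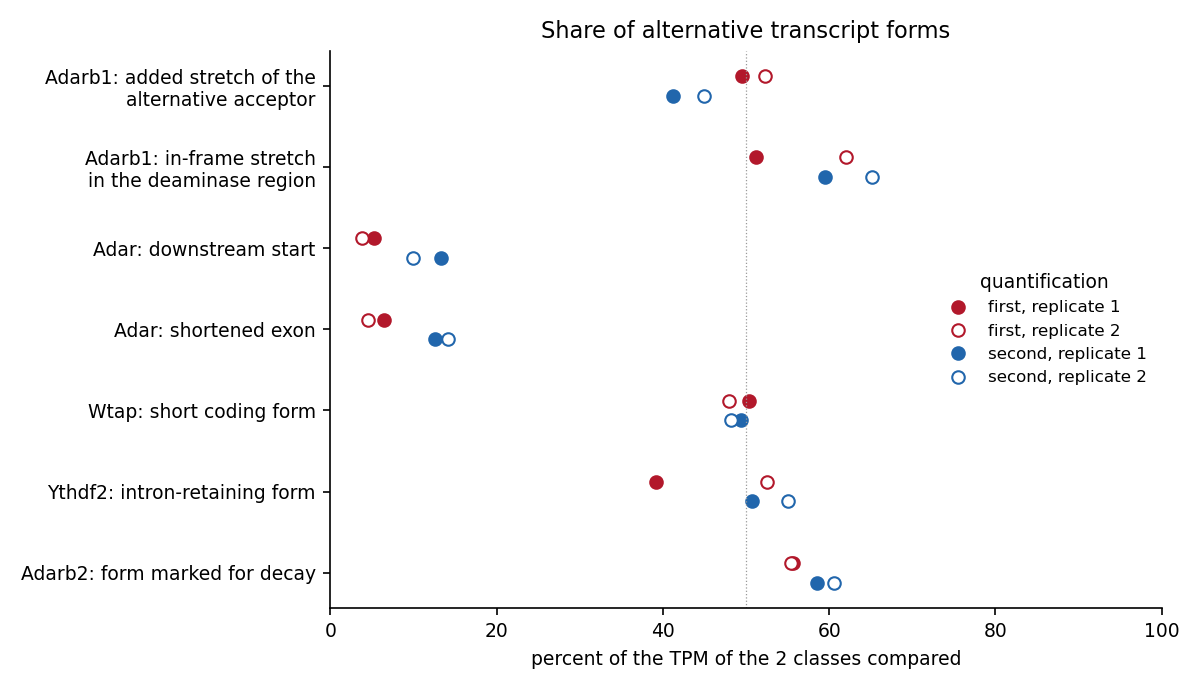
Percent of TPM in 1 of 2 alternative classes of transcript for 5 genes, by library (filled, replicate 1, and open, replicate 2) and quantification (red, first, and blue, second). The Wtap and Adarb2 points of the first quantification lie close together, and the Ythdf2 points range from 39.2% to 55.0%.

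The leading transcript was the same in both quantifications for 7 of the 10 genes, against 75.4% of 11476 genes, the exceptions being Adarb1, Wtap and Ythdf2. Exons of 3 of the genes overlap those of another gene. Fto shares exonic bases on the opposite strand with 4831440D22Rik and Gm45427, which had 0 counts in each library. Adar overlaps the acetylcholine receptor gene Chrnb2 on the opposite strand over 1365 exonic bases, and Chrnb2 had 36.5% as many counts. Mettl3 overlaps Tox4 on the opposite strand over 933 exonic bases, and Tox4 had 336% as many counts. The deposited SD of the gene count was 0.00 for Adar and Mettl3 in each library, so no read was divided between genes there, but whether counting used the strand is not given in the sources used here. For Wtap that SD was 4.79 and 5.33 counts, and for Ythdf2 0.29 and 0.30 counts, while the other genes stood at 0.00.

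The other genes of these pathways were measured as lists. The list of m6A methyltransferase partners holds subunits of the complex together with other RNA methyltransferases and a cofactor. All 10 of its genes were detected, and 0 of 10 were over 0.32 apart, against 6.21% of all genes compared. They were led by the zinc-finger subunit Zc3h13 (22.9 and 27.4 TPM in replicates 1 and 2), Rbm15b, which helps to bring the complex to RNA (19.4 and 21.3 TPM), and Trmt112, a cofactor of other RNA methyltransferases (18.6 and 18.9 TPM). Each of them had at least 3.88 TPM in each library, and the mean levels of all but Mettl5 and Zcchc4 were above that of Mettl14. These exceptions were named after their values were seen.

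Of 12 other proteins described as m6A readers, 9 were detected and 0 of the 9 compared were over 0.32 apart, against 6.21% of all genes. The RNA-binding protein genes Hnrnpa2b1 (207 and 208 TPM), Prrc2a (126 and 139 TPM) and Hnrnpc (112 and 104 TPM) led. The 3 that were not detected were Igf2bp1, Igf2bp2 and Igf2bp3, with Igf2bp2 highest at 0.15 and 0.23 TPM. These 3 were named after their values were seen.

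The 6 regulators of ADAR proteins were all detected and 0 of 6 were over 0.32 apart, against 6.21% of all genes compared. Zfr stood at 145 and 125 TPM and Srsf9 at 34.3 and 37.6 TPM. Of 9 other RNA deaminase genes, 4 were detected, all at low levels, led by the tRNA deaminases Adat2 (4.54 and 3.92 TPM) and Adat1 (2.67 and 2.48 TPM) and by the cytidine deaminase Apobec3 (1.58 and 2.36 TPM). Adad1, a testis relative of the ADARs, had 0 counts in each library. A count of 0 allows up to 3 counts per library.

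All 21 transcripts known to be recoded by A-to-I editing were detected, with Gria2 at 268 and 260 TPM, Cyfip2 at 200 and 178 TPM and Cadps at 93.1 and 83.6 TPM. Of these 21, 2 were over 0.32 apart, against 6.21% of all genes compared. They were Htr2c (log2 ratio 0.52) and Igfbp7 (0.51), both higher in replicate 2 and named after their values were seen. The choroid plexus sum was also higher in replicate 2, as given above, and its part in these 2 genes was not tested. Of 11 sensors of double-stranded RNA, 5 were detected, with Tlr3 (3.02 and 3.75 TPM) and Mavs (2.60 and 3.40 TPM) the highest. Among the 5 compared, 1 was over 0.32 apart, Mavs at 0.47, against 6.21% of all genes compared.

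These counts changed with spike-in scaling, on which 28.2% of all genes passed 0.32. There 3 of the 10 methyltransferase partners (Pcif1 at 0.40, Zcchc4 at 0.37 and Rbm15 at 0.34), 2 of the 6 regulators of ADAR proteins, 7 of the 21 recoded transcripts and 4 of the 5 sensors were over it, all higher in replicate 2. Of the 9 other readers and the 2 other deaminases compared, 0 were.

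**Figure D5:**
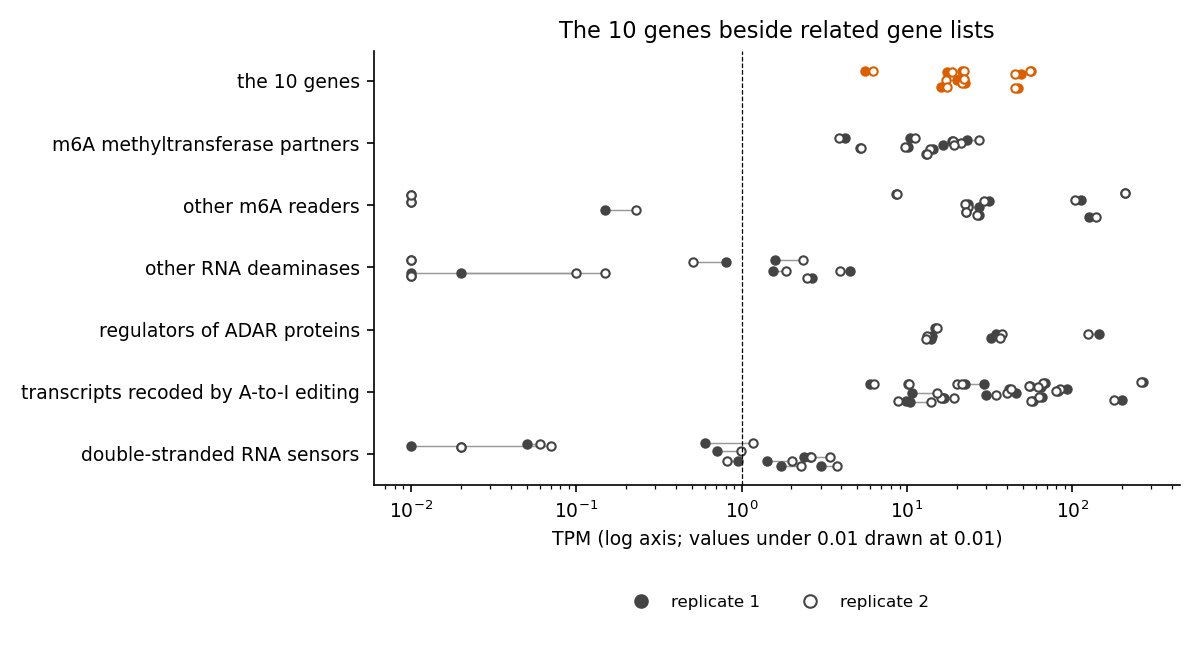
TPM (log axis) of the 10 genes (orange) and of 6 lists of related genes (grey), with filled points for replicate 1 and open points for replicate 2 joined by lines, and a dashed line at 1 TPM. All 10 genes lie above 5 TPM, while the other deaminases and the sensors lie below 5 TPM.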

How the data were processed

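Total RNA was sequenced in 2 libraries of 1 group. Per the deposited file lists, reads were set against mouse build mm10 with GENCODE M21. The authors deposited expected counts in a gene table and a first transcript table. These divide reads that match several transcripts. Beside them stand TPM, its lower and upper bounds, a posterior SD of each count and, for transcripts, the percent of the gene's TPM, per the file headers. Per the file headers, a second transcript table holds estimated counts and TPM of another quantification. RSEM writes columns named as in the first set and kallisto as in the second, but the software is not given in the sources used here. Reads of a hybrid strain set against 1 reference genome can be lost where the CAST/EiJ allele differs.

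Counts were rounded to whole numbers, then scaled by TMM with edgeR 4.0.16 in R 4.3.3, with a prior count of 0.5. With 1 library on each side of the ratio no p-value was computed. A mean count of at least 100 was asked of the genes compared, and of at least 10 for the dispersion. The ratio code was tested on simulated data. Transcript forms were grouped by exons shared in the annotation. DESeq2 1.42.0 size factors, total counts, spike-in totals, deposited TPM, the second quantification, other minimums, other folds and each replicate alone were alternatives. Python 3.11.15 with pandas 2.3.3, numpy 2.4.6, scipy 1.17.1 and matplotlib 3.10.9 did the rest. Spike-ins and 26248 numbered entries (1.42e-05% of counts) were left out of library sizes.

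The 10 genes and all lists were chosen with earlier results of these data known. Besides the 10 genes in full, the genes named in each list are the 3 with the highest mean TPM, those over 2-fold apart with enough counts and those at 0 counts in each library; some of these are not reported here. To check the tissue label, markers of astrocytes, microglia and endothelial cells were also listed; all 5 of each were detected and 0 of 5 were over 0.32 apart on the log2 scale in each list (1, 0 and 2 with spike-in scaling).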

Additional observations from a re-analysis of the deposited data

How the results depend on the processing

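All 10 genes were detected under every alternative but the 10 TPM minimum, which Mettl14 missed, and 10 were detected in each library alone. The count over 0.32 apart on the log2 scale, 0 under TMM, was 1 with spike-in scaling (Adarb2) and 1 with a fold of 1.1 (Mettl3, against 29.2% of all genes), and 0 under the other alternatives. The median log2 ratio of -0.03 was 0.22 with spike-in scaling. The Adarb1 acceptor share of 50.9% was 43.1% by TPM and 41.0% by counts in the second quantification, and 49.5% to 52.2% with 1 library alone. The downstream-start share of Adar, 4.50%, was 11.6% by TPM and 13.8% by counts in the second quantification, 3.35% by counts and 6.33% by posterior mean TPM in the first, and 3.81% to 5.19% with 1 library alone, so its size depended on the quantification. The short Wtap form, 49.2%, was 55.7% by counts in the first quantification, 55.6% by counts in the second, and 48.0% to 50.3% with 1 library alone. The leading transcript was the same in both quantifications for 6 to 9 genes with 1 library alone, against 7 in the mean. It was the same for 9 by counts. The 4 genes with coding transcripts under 60% of TPM were 2 by counts in each quantification, 5 by TPM in the second, and 3 to 4 with 1 library alone. The causes were not tested. Levels in TPM were higher in the second quantification for all 10 genes, by a median factor of 1.81, against 1.71 for detected protein-coding genes, and 6 of 10 genes changed place in the order, Fto from first to second among them, as did 7 of 10 in replicate 2 alone. The TPM of 21 of 73 transcripts of these genes lay outside its own deposited bounds in both libraries. No paired analysis was possible because there was 1 group with 2 libraries. At 390 and 361 counts, Mettl14 was the gene most limited by depth.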
